A study of Mus musculus with 12 samples.

Results

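The cardiac myosin heavy chain genes Myh6, Myh7 and Myh7b and the microRNA genes inside them, Mir208a, Mir208b and Mir499, are 6 genes of the 23042 gene entries in each expression table. They were found by symbol, and the tables hold them in 5 rows. Myh6 and Myh7 share 1 joined row, "Myh6,Myh7" (XLOC_006343), so α- and β-myosin heavy chain RNA could not be separated, and no ratio of Myh7 to Myh6 was computed. Each of the 3 microRNAs has a row of its own (XLOC_006344 for Mir208a, XLOC_006345 for Mir208b and XLOC_011337 for Mir499), apart from its host.

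Heart ventricles and epididymal white adipose tissue (EWAT) were taken from male C57BL/6 littermates, 6 weeks old per the labels, fed normal chow ad libitum. The groups were WT and MED13cTg mice, which carry a transgene raising MED13 in the heart, with 3 libraries for each genotype and tissue and 12 in all. The sources used here do not name the promoter of the transgene or the number of founder lines. Because Myh6 and Myh7 share a row, its level was not read as the activity of either promoter. Expression was given in FPKM, the fragments of a gene scaled by transcript length and by the mapped fragments of the library, so that levels of messenger RNA entries are per length. A microRNA hairpin entry is shorter than a usual sequencing fragment, and its FPKM was compared between libraries only.

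Myosin heavy chains are the motor proteins of the thick filament. In the mouse ventricle the fast α isoform (Myh6) prevails after birth, the slow β isoform (Myh7) prevails before birth and returns under stress or low thyroid hormone, and Myh7b is a slow-fibre heavy chain of low abundance. Each of the 3 genes carries a microRNA in an intron on its own strand. miR-208a is known to promote expression of Myh7 and of other slow-fibre genes and to repress Med13, a subunit of the Mediator kinase module, which is why the heavy chains are of interest in mice with raised MED13. Sox6, Purb and Sp3 are transcription factors described as targets of these microRNAs that hold back slow-fibre genes.

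The hairpins are shown first because they are what the microRNA rows measure. In GRCm38.p6 (RefSeq) the Mir208a hairpin lies at chr14:54949060-54949142 on the minus strand, within intron 29 of the 38 introns of the longest Myh6 coding transcript of GENCODE. The Mir208b hairpin lies at chr14:54975700-54975776 on the minus strand, within intron 31 of the 40 introns of Myh7. The Mir499 hairpin lies at chr2:155622880-155622958 on the plus strand, within intron 19 of the 41 introns of Myh7b. Capitals mark the mature arm known to act in muscle.
Mir208a hairpin: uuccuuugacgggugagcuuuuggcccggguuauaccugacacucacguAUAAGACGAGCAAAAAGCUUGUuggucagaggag
Mir208b hairpin: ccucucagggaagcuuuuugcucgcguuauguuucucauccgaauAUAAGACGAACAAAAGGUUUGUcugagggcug
Mir499 hairpin: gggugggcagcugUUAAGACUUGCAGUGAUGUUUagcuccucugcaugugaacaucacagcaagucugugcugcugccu

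The hairpins are 83, 77 and 79 bases long. The mature arms follow with the seed, bases 2 to 8 counted from the 5′ end, in capitals, since the seed sets which transcripts can be paired.
mmu-miR-208a-3p: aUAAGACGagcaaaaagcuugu
mmu-miR-208b-3p: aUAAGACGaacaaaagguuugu
mmu-miR-499-5p: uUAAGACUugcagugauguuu

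By seed the 3 fall into 2 groups. miR-208a and miR-208b share the seed and are identical over their first 9 bases, and they differ by 3 substitutions, G10A, A16G and C18U. Within the seed miR-499 differs from miR-208a by 1 substitution, G8U. The deposited libraries were made from long RNA with a kit for messenger RNA, so an FPKM of a microRNA row stands for fragments assigned to the hairpin entry and not for the mature microRNA.

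A match to the miR-208 seed is CGTCTTA in the sense strand. It was looked for in the 3′ untranslated region of the longest complete coding transcript of each gene, leaving out very short regions. It was present in 318 of 20518 such regions (1.55%; median length 966 bases), and the miR-499 match, AGTCTTA, in 1956 (9.53%). Of 12 genes listed as described targets of these microRNAs, 3 held the miR-208 match (Med13, Sox6 and Sp3) and 7 held the miR-499 match, and Sox6 held both. The 3 sites are shown with the match in capitals.
Med13 site: taaaatatatgtaatCGTCTTAattaaaac
Sox6 site: atctctgcccatcgcCGTCTTAtgagtctt
Sp3 site: taataaggtgtattgCGTCTTAgcagagaa

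The Med13 match occupies bases 547 to 553 of a 3953-base region on chromosome 11, minus strand. Many of the listed regions are longer than the median, and a longer region holds more matches of any kind. A match of these letters is a description of the sequence. Whether the transgene RNA carries this region is not given in the sources used here.

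The transgene was checked first. In ventricles Med13 stood at 13.1, 10.6 and 11.5 FPKM (WT) against 263, 181 and 204 FPKM (MED13cTg). The means differed 18.4-fold, a log2 fold change of 4.08 (standard error, SE, 0.17, limma with Benjamini-Hochberg adjustment, adjusted p = 0.00028). In EWAT Med13 ranged from 9.43 to 10.9 FPKM in WT and from 7.84 to 11.0 FPKM in MED13cTg mice, and the groups overlapped.

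Rank correlations between ventricle libraries lay between 0.944 and 0.969. The 8 ventricular cardiomyocyte marker genes summed to between 62831 and 90548 FPKM, and all were expressed in each library. By rank correlation the ventricle libraries fell into 2 clusters, one with WT replicate 1 and MED13cTg replicates 1 and 2 and the other with the remaining 3, so genotypes were also compared within clusters. Across ventricles, 3 genes were higher and 4 lower at an adjusted p under 0.05, or 0.0556% of the 12589 genes tested. The 3 higher were Med13, a microRNA row and a small nucleolar RNA row. Of the genes tested, 1172 (9.31%) did not overlap between genotypes. The labels give 3 libraries per genotype and organ, and p-values set the difference between genotypes against the spread between these libraries.

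No row of the cardiac heavy chains or their microRNAs passed the test between genotypes in ventricles. Of the 5 member rows, 4 passed the filter of a mean of at least 1 FPKM in ventricles, 0 were called by limma against a background of 0.0556%, and 0 had an unadjusted p under 0.05 against a background of 4.73%. None of the 4 rows was without overlap between genotypes, against 9.31% of all genes tested. Among the messenger RNA entries, the Myh6,Myh7 row stood above Myh7b in every library. FPKM values of the hairpin entries are not comparable with those of messenger RNAs and were not put in that order.

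The Myh6,Myh7 row, α- and β-myosin heavy chain together, ranked 23rd of all 23042 entries by its WT mean, hairpin entries included. Its values were 4773, 5378 and 4984 FPKM in WT replicates 1, 2 and 3, against 3117, 5822 and 5288 FPKM in the MED13cTg replicates. The lowest and the highest value both came from MED13cTg mice, and the WT values lay between them. The WT mean was 5045 ± 308 FPKM and the MED13cTg mean 4742 ± 1432 FPKM (SD, n = 3 each). The log2 fold change was -0.14 (SE 0.27, 95% interval -0.77 to 0.50, limma adjusted p = 0.971), which in folds spans 0.585 to 1.41. Without MED13cTg replicate 1, the lowest library, the log2 fold change was 0.14, and within the library clusters it was 0.03 and -0.16. That library also held the highest Med13 value, and a link between the levels was not tested.

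**Figure D1:**
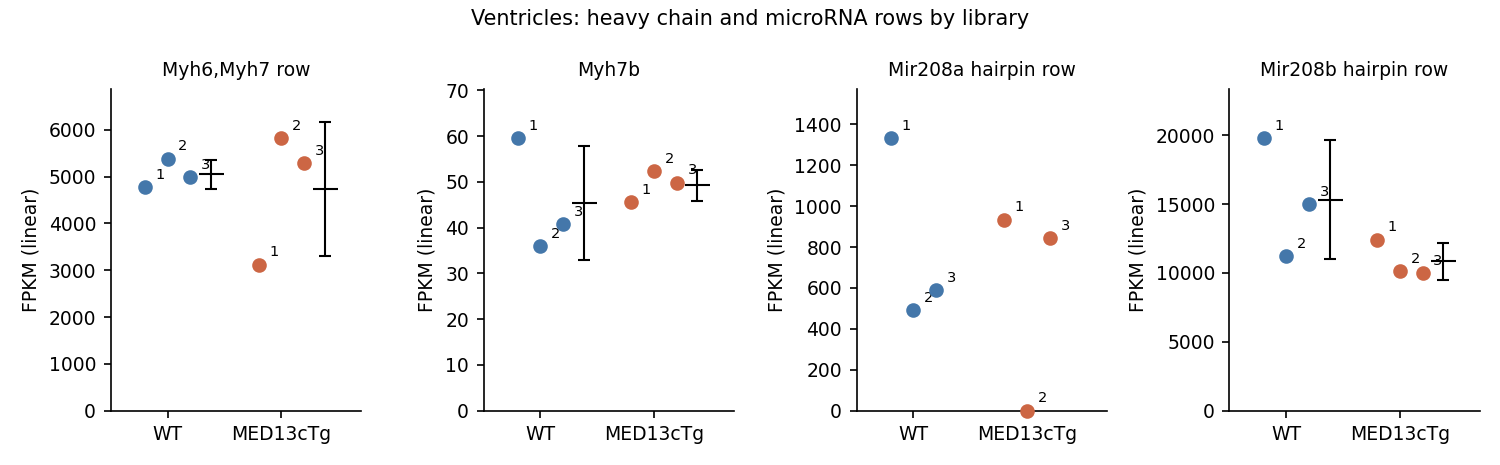
FPKM of the 4 member rows above 0 in ventricles, on linear axes from 0, with 1 point per library and its replicate number; the bar beside each group is the mean ± SD of 3 libraries, left out for Mir208a because 1 library is listed at 0. The genotypes overlap in each panel, and MED13cTg replicate 1 is the lowest library of the Myh6,Myh7 row at 3117 FPKM.

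Myh7b stood about 2 orders of magnitude lower. Its libraries measured 59.6, 35.9 and 40.7 FPKM (WT) against 45.5, 52.4 and 49.8 FPKM (MED13cTg). The 3 MED13cTg values lay close together, inside the range of the WT values. The means were 45.4 ± 12.5 and 49.2 ± 3.45 FPKM (SD, n = 3 each), with a log2 fold change of 0.15 (SE 0.19, 95% interval -0.32 to 0.61, limma adjusted p = 0.966). The sign rested on WT replicate 2, without which the log2 fold change was -0.0036, and it was 0.37 and -0.28 within the library clusters.

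Out of the summed heavy chain FPKM, Myh7b made up 1.23, 0.663 and 0.81% in WT and 1.44, 0.891 and 0.933% in MED13cTg ventricles. In each genotype replicate 1 had the largest share. The means were 0.902% ± 0.296 in WT and 1.09% ± 0.305 in MED13cTg mice (SD, n = 3 each; exact two-sided permutation test, p = 0.5, where 3 against 3 libraries allow no p below 0.1). The summed FPKM of the heavy chains was 5091 ± 297 in WT and 4792 ± 1436 in MED13cTg ventricles (SD, n = 3 each; exact permutation test, p = 0.9). Without MED13cTg replicate 1 the difference in the sum turned from -299 to 515 FPKM.

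The other sarcomeric heavy chains were near 0 in ventricles. Of 7 such genes 1 passed the filter, Myh4, a fast skeletal heavy chain, at 1.87 to 2.26 FPKM (WT) against 1.55 to 2.40 FPKM (MED13cTg), and it was not called. Myh1, the next highest, reached 0.241 FPKM. Among the 4 non-muscle and smooth muscle heavy chains, Myh9 ranged from 25.9 to 45.1 FPKM and Myh14 from 17.5 to 39.1 FPKM over the 6 libraries. Of the 4, 0 were called (0.0556% of all genes tested) and 0 had an unadjusted p under 0.05 (4.73% of all genes tested).

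Mir208b, in the β heavy chain gene, stood at 19801, 11204 and 14993 FPKM (WT) against 12421, 10109 and 9998 FPKM (MED13cTg). Both of the lowest values were MED13cTg libraries, the highest 2 were WT, and MED13cTg replicate 1 lay above WT replicate 2. The means were 15333 ± 4308 and 10843 ± 1368 FPKM (SD, n = 3 each). The log2 fold change was -0.47 (SE 0.26, 95% interval -1.10 to 0.16, limma adjusted p = 0.966), and it was -0.37 and -0.82 within the clusters.

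Mir208a, in the α heavy chain gene, was at 1333, 492 and 589 FPKM in the WT libraries. MED13cTg replicates 1 and 3 gave 933 and 842 FPKM, and MED13cTg replicate 2 was listed at 0. That library had the highest value of the Myh6,Myh7 row. With this 0 the log2 fold change was -2.98 (SE 2.53, limma adjusted p = 0.966), and without that library it was 0.28, so its size and direction rest on 1 library. Such zeros were common among microRNA rows. Among 566 ventricle rows of microRNAs, 442 were at 0 in every library, and of the 123 that passed the filter 86 were at 0 in one library and at 1 FPKM or more in another of the same genotype.

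Mir499, in the Myh7b gene, was listed at 0 in all 6 ventricle libraries, while its host was at 35.9 FPKM or more in each. Zeros were frequent in other muscle microRNAs as well. Of 10 listed, 8 had a row, and 5 of these were at 0 in every ventricle library. Mir133a-1 was listed at 0 in WT replicate 3 and MED13cTg replicate 2 and reached 1349 FPKM in MED13cTg replicate 3, and Mir133a-2 was at 0 in 2 libraries and at 71.2 to 204 FPKM in the other 4.

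Relative to the joined heavy chain row, Mir208b stood at ratios of 4.15, 2.08 and 3.01 in WT and 3.98, 1.74 and 1.89 in MED13cTg ventricles. The ratio was highest in replicate 1 of both genotypes, and the groups overlapped. Mir208a stood at ratios of 0.279, 0.0915 and 0.118 in WT and 0.299 and 0.159 in MED13cTg replicates 1 and 3. Among the 5 libraries with both microRNA rows above 0, the ratio of the Mir208b row to the Mir208a row ranged from 11.9 to 25.5. Because a hairpin entry is shorter than a usual sequencing fragment, few fragments make a high FPKM there, and these ratios compare libraries and not amounts of RNA.

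**Figure D2:**
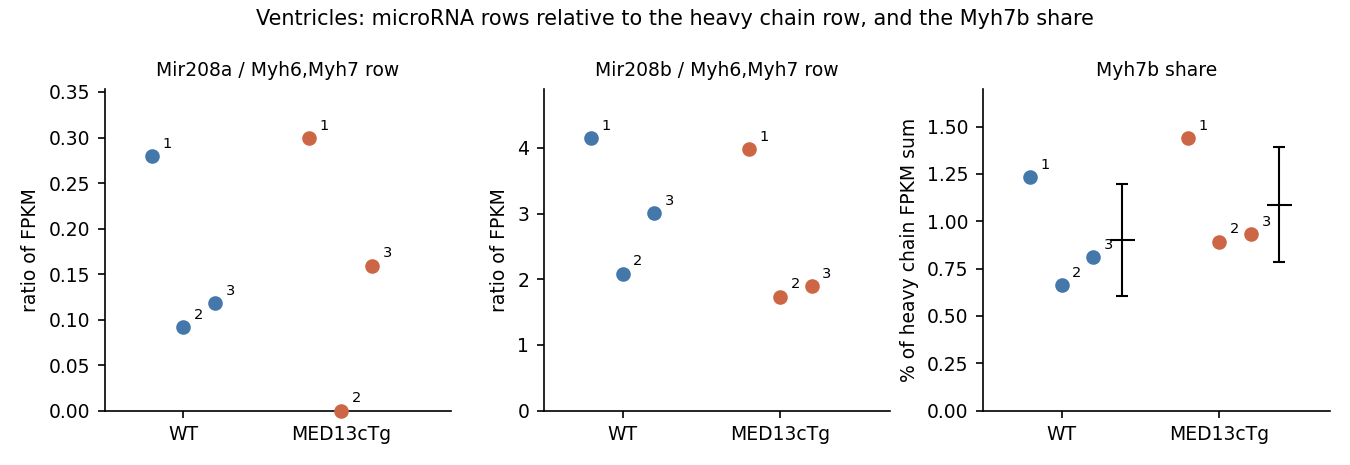
Ratio of the FPKM of the Mir208a and Mir208b rows to that of the joined Myh6,Myh7 row, and the Myh7b share in % of the summed heavy chain FPKM, in each ventricle library, on linear axes from 0. Points are libraries with their replicate numbers, and the bars in the right panel are mean ± SD of 3; replicate 1 is the highest for Mir208b and Myh7b in both genotypes.

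A long noncoding RNA lies on the opposite strand over Myh7. Its entry, D830015G02Rik, is a RefSeq synonym of Mhrt (Myheart), and it was singled out after its values were seen. It was at 499, 247 and 257 FPKM (WT) against 295, 310 and 247 FPKM (MED13cTg; log2 fold change -0.16, SE 0.28, limma adjusted p = 0.970). Without WT replicate 1 the log2 fold change was 0.17. The counting is not stated to use strand, and reads of Mhrt and of the heavy chain gene could then not be told apart. Within coding sequences Myh6 and Myh7 were identical at 91.4% of aligned positions and shared 22.6% of the 50-base stretches of the Myh6 messenger RNA, whereas neither shared a stretch of that length with Myh7b.

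Among the described targets of miR-208 and miR-499, Med13, the gene raised by the transgene, alone passed the test in ventricles. Of 12 genes 11 passed the filter, and 1, Med13 itself, was called, beside 0.0556% of all genes tested. Its call follows from the transgene and is not a result about targets of the microRNAs. The remaining 10 had log2 fold changes from -0.33 (Dyrk2) to 0.18 (Ptbp3). None of them had an unadjusted p under 0.05, beside 4.73% of all genes tested. Their list as a whole had a median log2 fold change of -0.07, beside -0.01 over all genes tested. Sox6 and Sp3, named for their seed match, were at 2.04 to 4.24 and 17.0 to 19.1 FPKM in WT and at 2.21 to 3.39 and 17.8 to 22.4 FPKM in MED13cTg mice. Hbp1 was at 101, 102 and 102 FPKM (WT) against 87.6, 93.6 and 92.5 FPKM (MED13cTg), lower in each MED13cTg mouse. Its log2 fold change was -0.16 (SE 0.10, limma adjusted p = 0.966), and 9.31% of all genes tested did not overlap. The region of Hbp1 held neither match, and its place on the list as a described target was not checked. Mstn, myostatin, was under the filter and was also lower without overlap, as were 4.06% of the genes under the filter and above 0, at 0.257, 0.274 and 0.475 FPKM (WT) against 0.221, 0.126 and 0.187 FPKM (MED13cTg).

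**Figure D3:**
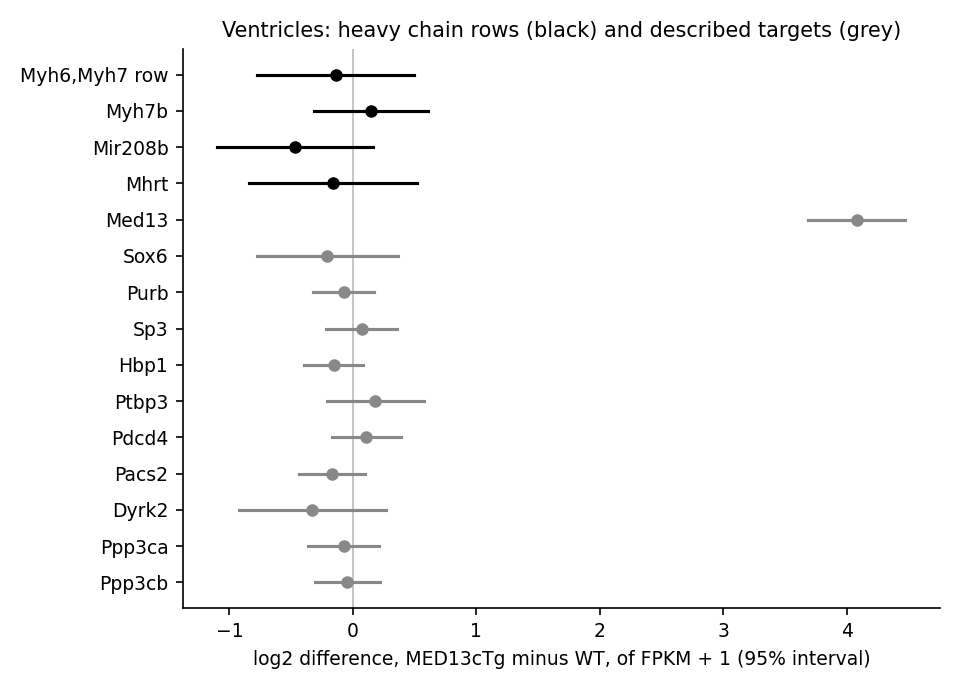
log2 difference between MED13cTg and WT ventricles of FPKM + 1 from limma, with 95% intervals over 3 libraries per genotype. Black marks the heavy chain rows, the Mir208b hairpin row and Mhrt, and grey marks the described targets that passed the filter. Med13 stands at 4.08 and the interval of every other row includes 0; Mir208a is left out because 1 library is listed at 0.

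Slow-fibre genes, which miR-208a is known to promote together with Myh7, gave no call either. All 8 listed genes were tested, 0 were called by limma, 2 had an unadjusted p under 0.05 (4.73% of all genes tested), and the median log2 fold change was 0.11 beside -0.01 over all genes. These 2 differences had opposite signs, and both genes were without overlap, as were 9.31% of all genes tested. Tnnt1, slow skeletal troponin T, was at 36.7, 37.5 and 35.7 FPKM (WT) against 83.6, 214 and 101 FPKM (MED13cTg). Each MED13cTg mouse exceeded each WT mouse by over 2-fold, and the means differed 3.63-fold (log2 fold change 1.71, SE 0.33, unadjusted p = 0.00141, limma adjusted p = 0.614). Tnni1, slow skeletal troponin I, was at 2.99, 1.53 and 0.859 FPKM (WT) against 0.611, 0.84 and 0.37 FPKM (MED13cTg). The log2 fold change was -0.74 (SE 0.29, limma adjusted p = 0.966), and on log2(FPKM + 0.1) it was -1.31. Tnni1 passed the filter only through WT libraries, since each MED13cTg value lay under 1 FPKM. Its values lie near the floor, and its difference is a description only. Myl2 and Myl3, the ventricular and slow-fibre light chains that bind the heavy chains, were the highest of the list. Myl2 lay between 19184 and 22654 FPKM in WT libraries and between 22362 and 36273 FPKM in MED13cTg libraries, and Myl3 between 10612 and 13503 and between 10785 and 13170 FPKM, and both genes overlapped.

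The 6 genes listed as rising with Myh7 in a stressed heart held 0 calls, and 2 had an unadjusted p under 0.05, against a background of 4.73%. These were Nppa, higher in MED13cTg mice, and Tnni1, which was lower and passed the filter only through WT libraries. Of the 6, 4 had a positive and 2 a negative log2 fold change. Their median log2 fold change was 0.23, beside -0.01 over all genes tested. Nppa, atrial natriuretic peptide, was at 565, 408 and 368 FPKM (WT) against 892, 1773 and 1088 FPKM (MED13cTg; log2 fold change 1.45, SE 0.29, unadjusted p = 0.00184, limma adjusted p = 0.746). Nppa and Tnni1 did not overlap between genotypes, as was so for 9.31% of all genes tested. The 5 other atrial cardiomyocyte markers summed to 188, 107 and 105 FPKM (WT) against 119, 678 and 95.3 FPKM (MED13cTg), highest in the library with the most Nppa and Tnnt1, MED13cTg replicate 2, and none of the 5 was without overlap. Their part in the result was not tested. Without that library the log2 fold change was 1.16 for Nppa and 1.30 for Tnnt1. Ankrd1, a stress-responsive titin-binding protein, was at 457 to 615 FPKM (WT) against 592 to 919 FPKM (MED13cTg), with overlap.

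Among 12 thick filament partners 11 passed the filter. By limma 0 were called, 2 had an unadjusted p under 0.05 (background 4.73%), and 3 did not overlap (background 9.31%). Their median log2 fold change was -0.063, beside -0.01 over all genes tested. Hspb7, a small heat shock protein of the sarcomere, was at 817, 885 and 1061 FPKM (WT) against 1236, 1355 and 1510 FPKM (MED13cTg; log2 fold change 0.57, SE 0.17, limma adjusted p = 0.945). Mybpc2, fast myosin-binding protein C, was at 22.4, 10.8 and 17.4 FPKM (WT) against 29.8, 33.4 and 30.2 FPKM (MED13cTg; log2 fold change 0.90, SE 0.24, limma adjusted p = 0.945). Both lay higher in 3 of 3 MED13cTg mice. Myom1, which links thick filaments at the M-band, was lower in 3 of 3, at 408, 468 and 479 against 331, 389 and 402 FPKM (log2 fold change -0.27, SE 0.14, limma adjusted p = 0.966). Mybpc3, the cardiac myosin-binding protein C, overlapped at 1116 to 1444 and 1190 to 1602 FPKM. The 10 tested myosin light chain rows held 0 calls, 0 at an unadjusted p under 0.05 and none without overlap.

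**Figure D4:**
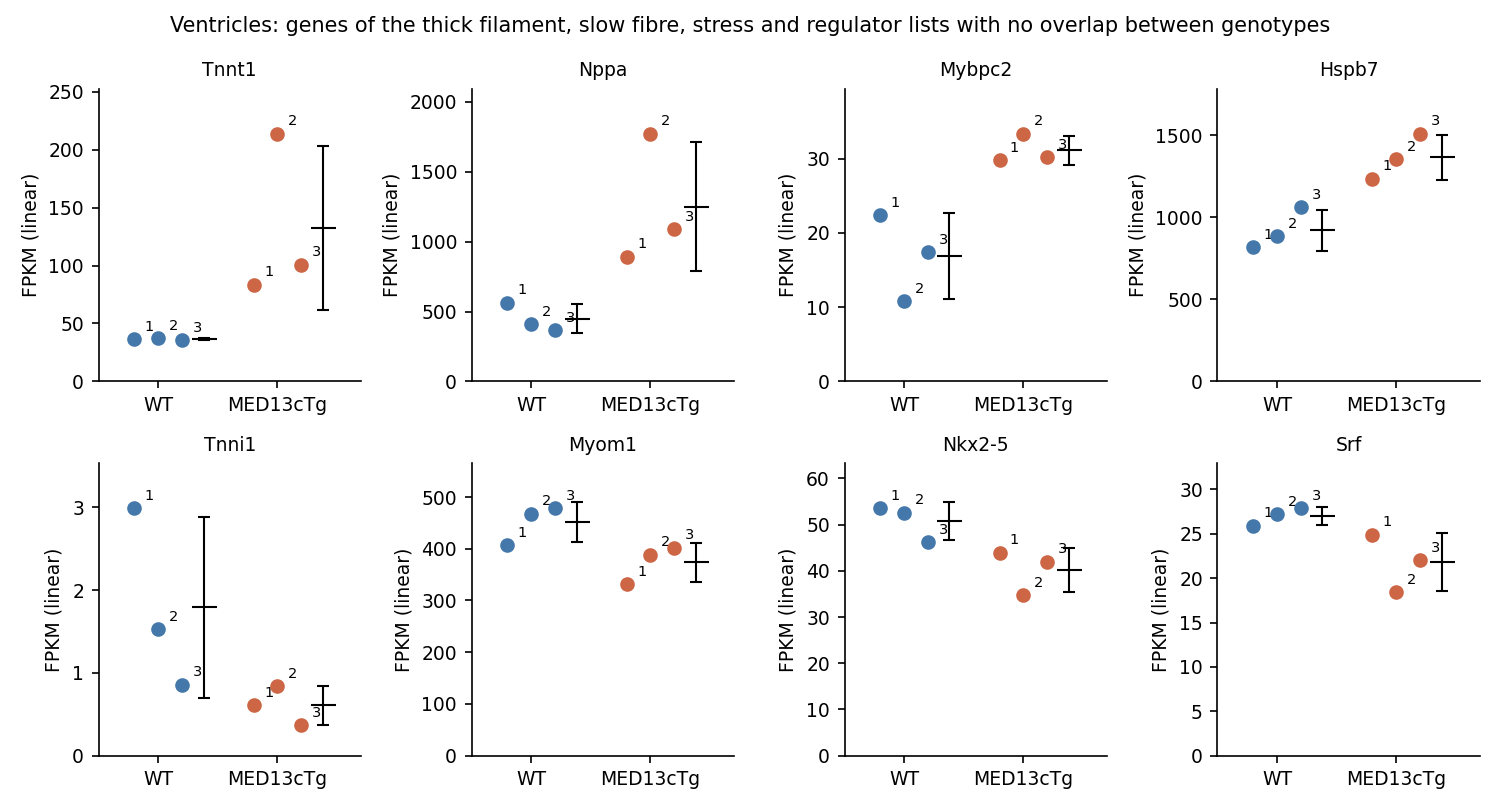
FPKM by ventricle library, on linear axes from 0, of 8 genes of the slow fibre, stress, thick filament and regulator lists without overlap between genotypes; points carry replicate numbers and bars are mean ± SD of 3 libraries. The upper row is higher and the lower row lower in MED13cTg mice, and 0 of the 8 passed the adjusted threshold. The genes were drawn for their lack of overlap, which 9.31% of all genes tested shared. Mef2c, also without overlap, is not drawn. Tnni1 passed the filter only through WT libraries.

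The 22 known regulators of the cardiac heavy chains were all tested. By limma 0 were called and 2 had an unadjusted p under 0.05, Nkx2-5 and Ppargc1a, against 4.73% of all genes tested. Of the 22, 4 had a positive and 18 a negative log2 fold change, with a median of -0.14 beside -0.01 over all genes tested. Without overlap, 1 was higher and 2 were lower, and 9.31% of all genes tested did not overlap. Nkx2-5, a core cardiac transcription factor, was at 53.6, 52.6 and 46.2 FPKM (WT) against 43.9, 34.8 and 41.9 FPKM (MED13cTg; log2 fold change -0.33, SE 0.13, limma adjusted p = 0.966). Srf, which drives contractile genes, was at 25.9, 27.2 and 27.9 against 24.9, 18.4 and 22.1 FPKM (log2 fold change -0.31, SE 0.13, limma adjusted p = 0.966). Mef2c did not overlap in the other direction, with 14.1 to 15.9 FPKM (WT) against 15.9 to 18.0 FPKM (MED13cTg). Its highest WT and lowest MED13cTg values both round to 15.93 FPKM. The log2 fold change of Mef2c was 0.14 (SE 0.10, limma adjusted p = 0.966). Hopx and Hdac5 were the highest of the list, with overlapping values of 308 to 437 and 285 to 415 FPKM for Hopx and of 70.0 to 103 and 60.2 to 97.8 FPKM for Hdac5.

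The genes whose pattern over the 6 ventricle libraries was most like that of the heavy chains were taken from the 12588 other genes tested. For the Myh6,Myh7 row these were Eapp (Pearson r = 0.994), Mad1l1 (0.990), P4htm (0.985), Supt3h (0.980) and Myoc (0.980). Each had its lowest value in MED13cTg replicate 1, as the row did. For Myh7b they were Zfp472 (0.989), A4galt (0.983), Tbl3 (0.983), Pcgf2 (0.981) and Acd (0.978), each highest in WT replicate 1. With 6 points that share their libraries, and so many genes searched, such values are a description only.

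In EWAT the members were near or at 0, and none of the 5 rows passed the filter. EWAT libraries differed in makeup. Summed epididymis markers were 42179 to 53964 FPKM in WT, 41146 FPKM in MED13cTg replicate 3, and 6823 and 143 FPKM in MED13cTg replicates 1 and 2. Summed testis germ cell markers were 209 to 338 FPKM in the 3 WT libraries and MED13cTg replicate 3, and they were 13394 FPKM in MED13cTg replicate 1 and 5.71 FPKM in MED13cTg replicate 2. The 8 adipocyte markers summed to between 1288 FPKM, in MED13cTg replicate 1, and 79010 FPKM, in MED13cTg replicate 2. In such whole tissue, fewer cells of a type and less RNA per cell cannot be told apart. At an adjusted p under 0.05, 0 genes were higher and 2 lower of 14967 tested (0.0134%), and with replicate number as a block 0 were lower. Each of the 2 was a microRNA row.

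The Myh6,Myh7 row was at 0.0881, 0.055 and 0.0514 FPKM (WT) against 0.752, 1.02 and 0.101 FPKM (MED13cTg). Each MED13cTg value exceeded each WT value, as in 5.98% of the 5404 genes that were under the filter and above 0. The means were 0.0649 ± 0.0203 and 0.624 ± 0.472 FPKM (SD, n = 3 each; exact two-sided permutation test, p = 0.1, the smallest that 3 against 3 allows). On the log2(FPKM + 1) scale, which understates changes at such levels, the difference was 0.56 (limma with no filter on expression, adjusted p = 0.741). With MED13cTg replicate 3 alone it was 0.049, so the size rests on the replicates 1 and 2 that stood apart.

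Ventricular cardiomyocyte markers did not share 1 pattern in EWAT. In MED13cTg replicate 2 Myl2 was at 11.2, Myl3 at 5.29 and Actc1 at 3.56 FPKM, and in the other 5 EWAT libraries Myl2 reached 0.527, Myl3 0.521 and Actc1 0.838 FPKM. In MED13cTg replicate 1 these were low, while Tnni3, cardiac troponin I, was at 45.1 FPKM against 3.40 to 5.83 FPKM elsewhere. Myl4, the atrial light chain, was at 38.4 FPKM there against 6.20 to 8.91 FPKM. In that replicate the 6 atrial cardiomyocyte markers summed to 39.35 FPKM, so nearly all of the sum was Myl4. Tnnt2, cardiac troponin T, made up most of the marker sum in WT, at 37.1, 28.1 and 43.9 FPKM, and was lower in MED13cTg replicates 1 and 2, at 8.85 and 5.08 FPKM, than in replicate 3, at 42.5 FPKM (log2 fold change -1.42, SE 0.75, limma adjusted p = 0.738). Pln, phospholamban, was at 0.922 to 1.03 FPKM (WT) against 5.86, 3.24 and 0.701 FPKM (MED13cTg), and Mybpc3 stayed under 0.421 FPKM in every library. The 8 ventricular markers summed to 36.8 to 49.6 FPKM in WT and to 60.8, 34.9 and 48.1 FPKM in MED13cTg EWAT, and of the 8, 0 were higher and 1, Ryr2, was lower without overlap, at 0.488 to 0.562 FPKM (WT) against 0.287 to 0.461 FPKM (MED13cTg). The 11 skeletal muscle markers summed to 148 FPKM in WT replicate 2, 108 FPKM in MED13cTg replicate 2 and 16.1 to 32.7 FPKM in the other 4 EWAT libraries. Their part in the result was not tested.

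**Figure D5:**
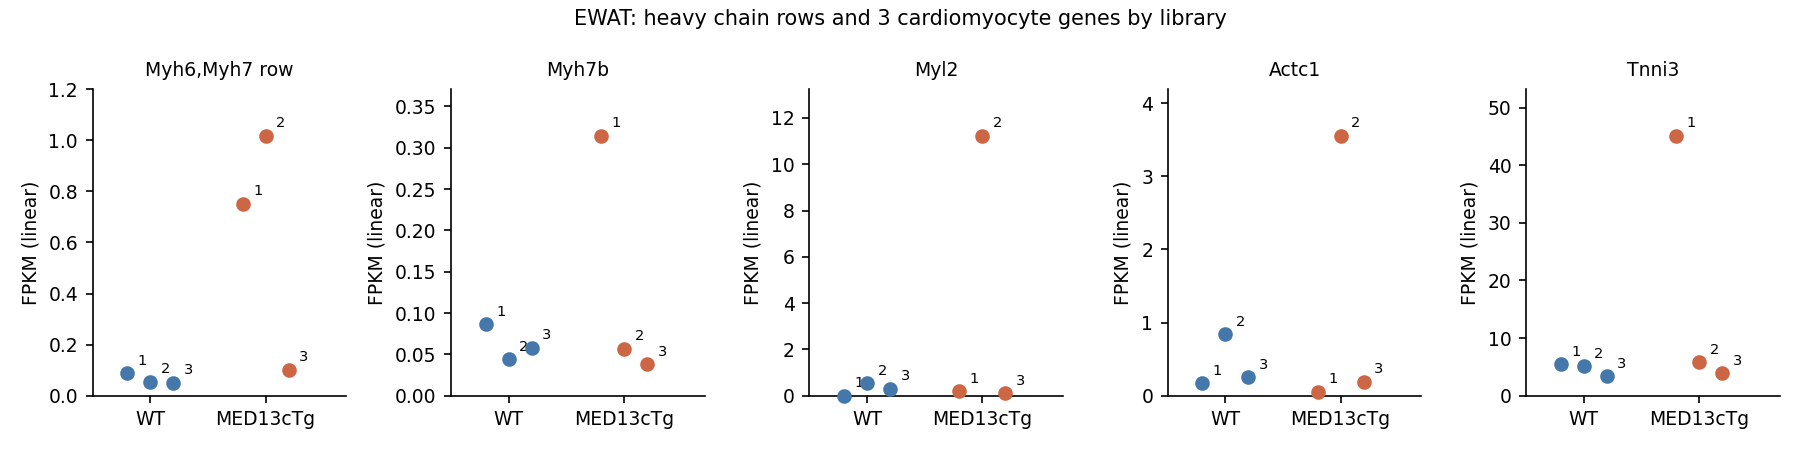
FPKM by EWAT library of the Myh6,Myh7 row, Myh7b and 3 cardiomyocyte genes, on linear axes from 0 with a scale of their own for each panel; points carry replicate numbers. The Myh6,Myh7 row is highest in MED13cTg replicates 2 and 1, Myl2 and Actc1 in replicate 2, and Tnni3 and Myh7b in replicate 1.

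Myh7b was at 0.0867, 0.0442 and 0.0579 FPKM (WT) against 0.314, 0.0568 and 0.0378 FPKM (MED13cTg). Only MED13cTg replicate 1 lay above the WT range. Mir208a, Mir208b and Mir499 were listed at 0 in all 6 EWAT libraries. The tables of the tissues were normalized separately, so the gap between the ventricle and the EWAT levels of these rows was not tested. Of the 11 described targets tested in EWAT, 0 were called by limma, 1 had an unadjusted p under 0.05 (1.25% of all genes tested), 3 were higher without overlap (4.88% of all genes tested) and 1 was lower without overlap (7.80%). The 3, Pacs2, Dyrk2 and Ppp3ca, were highest in MED13cTg replicate 1, at 36.5, 15.2 and 40.1 FPKM, and in MED13cTg replicate 3 they were at 11.1, 5.41 and 22.7 FPKM beside WT maxima of 10.2, 4.94 and 21.8 FPKM.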

How the data were processed

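RNA from ventricles and EWAT was sequenced by the authors. Their alignment (TopHat) and expression estimates (Cufflinks) used default settings. The submitters' processing notes name the mm9 build, and tool versions are not given in the sources used here. The authors deposited FPKM values per gene and library, 1 table per tissue. Their mean and fold columns, and 1 unnamed column of the EWAT table, were not used. Labels and paper differ on age and RNA amount, on which no value here depends.

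A gene entered the test when its 6 libraries averaged 1 FPKM or more. Genotypes were compared within a tissue by limma (version 3.58.1, R 4.3.3; lmFit, eBayes with trend) on values transformed as log2(FPKM + 1), with Benjamini-Hochberg adjustment over all genes tested and a threshold of 0.05. The fit was tested on data simulated as independent libraries around the WT mean and SD of each gene. That setting holds no library clusters and no differences in makeup such as those in EWAT, so the simulation does not cover them. Single values were compared by exact permutation over libraries in Python 3.11.15 with numpy 2.4.6 and pandas 2.3.3. Coding sequences were aligned with Biopython 1.88, and plots were drawn with matplotlib 3.10.9. Hairpins came from RefSeq (GRCm38.p6) and transcripts from GENCODE, and no coordinate was converted. The depth of each library is unknown from FPKM. From values under 0.15 FPKM, fragments relative to WT replicate 1 were 0.923 to 1.02 in ventricles and 0.662 to 0.930 in the other EWAT libraries.

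The members and gene lists were chosen with earlier results of these data known. Named genes were the members, Med13 and, from each list, genes past the threshold, up to 4 without overlap in ventricles with the largest change, and the 2 with the highest mean FPKM, plus the 5 genes most correlated with each heavy chain row. Other genes were named after their values were seen: Ppargc1a, Dyrk2, Ptbp3, Pacs2, Ppp3ca, Mhrt and the EWAT cardiomyocyte genes, and Sox6 and Sp3 for their seed match. The planned Myh7 share of Myh6 plus Myh7 was not computed because the 2 genes share a row.

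Replicate numbers come from the labels and belong to different mice. Deviations of same-numbered libraries from their group means correlated at 0.085, -0.192 and 0.14 in ventricles and at 0.347, 0.304 and 0.144 in EWAT, so in EWAT alone every pair was over 0.1.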

Additional observations from a re-analysis of the deposited data

How the results depend on the processing

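Under 15 other settings in ventricles (another pseudocount of 0.1, no filter or one at 5 FPKM, quantile or median-of-ratios scaling, array weights, no trend, the library cluster as a covariate, the replicate block and each library left out), 0 of 60 values of the 4 member rows passed the adjusted threshold, and 3 took the other sign. With the replicate block no member row changed its call; the same numbers belong to different mice, in ventricles they share only a number, and the count of genes lower in ventricles went from 4 to 1 and that in EWAT from 2 to 0. No setting moved the median of all genes by over 0.1 on the log2 scale.

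With 1 library left out at a time, the log2 fold change ranged from -0.31 to 0.14 for the Myh6,Myh7 row (positive without MED13cTg replicate 1), from -0.0036 to 0.35 for Myh7b (negative without WT replicate 2), from -4.65 to 0.28 for Mir208a (positive without MED13cTg replicate 2), and from -0.68 to -0.26 for Mir208b. The difference in the summed heavy chains ranged from -840 to 515 FPKM, and it was 118 FPKM in the cluster with WT replicates 2 and 3. The difference in the Myh7b share ranged from 0.0103 to 0.351 percentage points and was -0.0673 in the other cluster. Ranges with both signs were -0.17 to 0.036 (Myh4), -0.12 to 0.054 (Myl3), -0.22 to 0.12 (Hdac5), -0.18 to 0.091 (Hopx), -2.16 to 4.19 (Mir133a-1), -3.53 to 1.08 (Mir133a-2) and -0.34 to 0.17 (Mhrt).

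Array weights moved the log2 fold change from -0.14 to -0.42 for the Myh6,Myh7 row (adjusted p = 0.254), from 0.15 to 0.34 for Myh7b (unadjusted p = 0.0358, adjusted p = 0.158), from -2.98 to -1.30 for Mir208a (adjusted p = 0.658) and from -0.47 to -0.082 for Mir208b (adjusted p = 0.820). The cluster as a covariate gave -0.067 for the row, 0.046 for Myh7b and -0.60 for Mir208b (unadjusted p = 0.0291, adjusted p = 0.616). Array weights turned it to -0.027 for Mybpc3, 0.22 for Hopx, -0.019 for Mir133a-1, 0.98 for Mir133a-2 and 0.17 for Mhrt; quantile normalization gave 0.020 for Hdac5 and 0.069 for Hopx, and the cluster as a covariate gave 0.056 for Myl3. The causes were not tested.

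Genes higher in ventricles numbered 3, 7 with array weights and 3 to 6 with a library left out (5 without WT replicate 2, 6 without WT replicate 3, 5 without MED13cTg replicate 3). Genes lower numbered 4, 8 with array weights, 1 with no filter, 1 with the filter at 5 FPKM and 0 to 4 with a library left out (0 without MED13cTg replicate 2, 1 without MED13cTg replicate 1 or 3). In EWAT 0 genes were higher and 2 lower, 17 and 2 without MED13cTg replicates 1 and 2 together, 0 to 2 and 0 to 4 with a library left out, and 0 lower with no filter or array weights. For the EWAT rows, which are under the filter, the pseudocount of 0.1 gave 1.81 for Myh6,Myh7 and 0.36 for Myh7b, and leaving out MED13cTg replicates 1 and 2 gave 0.049 for Myh6,Myh7. The filter at 5 FPKM gives no value there, and the trend and array weights were not run on these untested rows. The Myh7 share was not run because Myh6 and Myh7 share a row. Depth is unknown from FPKM and limits values near 0 most.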
